A study of Homo sapiens with 6 samples.

Results

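FGFR1, AXL, MET, GFRA1 and IGF1R are 5 cell-surface receptors that tumour cells can use to keep growth signals going when an oncogenic kinase is blocked. They were taken as a named list, and all 5 were found among the 15945 genes of the A375 count table and the 15429 genes of the PC9 count table. A375 is a melanoma line of BRAF-V600E genotype, and its treated cells were grown in dabrafenib, which blocks BRAF. PC9, from a lung adenocarcinoma, carries an EGFR deletion (EGFR-del), and its treated cells were grown in osimertinib, which blocks EGFR. Adapted populations came from stepwise dose escalation: A375 at 30, 60, 125, 250 and 500 nM and at 1, 2 and 4 µM dabrafenib, and PC9 at 8, 16, 32, 75, 150, 300 and 600 nM and at 1.2 µM osimertinib. PC9 persisters are cells alive after 9 days of 1.2 µM osimertinib given at once. Each line also had an untreated population. Every population was 1 culture, so a difference is given by its size. Values in parentheses are 95% intervals of the counting error, without the spread between cultures. No p-value is given.

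MET binds hepatocyte growth factor (HGF), AXL binds GAS6 and protein S, FGFR1 binds fibroblast growth factors with heparan sulphate or a klotho protein, and IGF1R binds the insulin-like growth factors and can pair with the insulin receptor. These 4 are tyrosine kinases that feed the RAS and PI3K pathways through adaptors such as FRS2, GAB1, GRB2 and IRS1. GFRA1 has no kinase of its own: it is anchored in the outer membrane by a lipid, binds GDNF and presents it to the RET kinase or to NCAM1. In EGFR-mutant lung cancer, amplified or active MET, AXL, FGFR1 and IGF1R are known routes of resistance to EGFR inhibitors, and in BRAF-mutant melanoma IGF1R, MET and AXL have been described in cells that tolerate BRAF inhibitors.

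Promoter windows of the 3 members with the most counts in these tables, AXL, IGF1R and MET, are shown because every comparison below is read from transcripts that start there or at another start of the same gene. Each holds 250 bases before and 50 after a RefSeq start (GRCh38.p14, plus strand for all 3, printed 5′ to 3′), and capitals mark the GC box GGGCGG or the E-box CACGTG. The window of MET is chr7:116671946-116672245, that of IGF1R is chr15:98648289-98648588 and that of AXL is chr19:41218973-41219272.
MET: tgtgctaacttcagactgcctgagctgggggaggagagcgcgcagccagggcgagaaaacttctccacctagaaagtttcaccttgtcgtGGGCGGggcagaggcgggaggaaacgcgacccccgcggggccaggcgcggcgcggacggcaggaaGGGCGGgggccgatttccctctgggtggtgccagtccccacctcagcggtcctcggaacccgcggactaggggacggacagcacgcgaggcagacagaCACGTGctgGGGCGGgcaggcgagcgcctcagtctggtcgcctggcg
IGF1R: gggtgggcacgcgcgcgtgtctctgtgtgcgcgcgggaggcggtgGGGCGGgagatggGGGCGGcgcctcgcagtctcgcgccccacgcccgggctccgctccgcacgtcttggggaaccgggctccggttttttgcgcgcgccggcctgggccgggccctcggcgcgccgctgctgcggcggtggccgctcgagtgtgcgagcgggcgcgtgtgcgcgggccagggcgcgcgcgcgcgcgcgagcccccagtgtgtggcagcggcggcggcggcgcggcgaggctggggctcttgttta
AXL: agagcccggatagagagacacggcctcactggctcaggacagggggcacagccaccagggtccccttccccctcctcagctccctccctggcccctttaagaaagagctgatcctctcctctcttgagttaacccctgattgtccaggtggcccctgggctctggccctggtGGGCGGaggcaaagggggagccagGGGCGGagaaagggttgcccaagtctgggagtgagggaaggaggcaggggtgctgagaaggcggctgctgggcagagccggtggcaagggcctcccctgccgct

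The MET window held 3 matches to the GC box and 1 to the E-box, the IGF1R window 2 GC boxes and the AXL window 2. Matches on both strands were counted, and no 2 of these matches overlap. Of 35116 RefSeq windows of the same length, 45.0% held GGGCGG and 7.26% held CACGTG. None of the 3 windows held the AP-1 letters TGANTCA, found in 7.71% of windows, the ETS letters CCGGAAG, found in 10.3%, or the TEAD letters GGAATG, found in 14.0%. The TEAD letters occurred once in a later AXL start and once in 1 of 4 GFRA1 starts. A 3′ tag does not show which start a transcript used. By base composition, 69.3% of the MET window, 79.7% of the IGF1R window and 66.0% of the AXL window was G or C.

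The A375 table held 8505 cells in 9 populations of 2938641 to 21976644 unique molecular identifiers (UMIs), and that of PC9 held 11258 cells in 10 populations of 4908228 to 10552237 UMIs. The median cell had 7337 to 9804 UMIs by population in A375 and 5776 to 7968 in PC9. Levels are counts per 1000000 UMIs (CPM), and where no UMI was found the 3 counts that this allows come to at most 1.02 CPM in A375 and 0.611 CPM in PC9. The authors' cell tables list a part of the cells, from 22.0% of untreated cells to 81.2% at 250 nM in A375 and from 12.9% of untreated cells to 81.8% of persisters in PC9. How the cells were picked is not stated, but the name of these tables holds the tag g1. The summed level of 8 genes of the G2 and M phases, such as MKI67 and CCNB1, was 100.2 to 387 CPM in listed and 1031 to 1617 CPM in other PC9 cells by population, and 38.7 to 87.5 CPM and 681 to 1235 CPM in A375. Levels of the receptors differ between listed and other cells, so a contrast over all cells also holds this difference in makeup. Values within each class stand beside some contrasts only, and the rest are over all cells. The tables share 27 cell barcodes, and no barcode stood in more than 1 population of a line. Untreated A375 cells had 208 CPM of SOX10 and 164 CPM of S100B, while the pigment genes TYR, MLANA and PMEL were at 0.0910, 0.273 and 1.32 CPM. Untreated PC9 cells had 441 CPM of EPCAM and 1592 CPM of KRT19, and the lung markers NKX2-1, SFTPB and NAPSA were not analysed here. The drug targets were read in every population: EGFR stood at 539 CPM in PC9 at 1.2 µM, 747 CPM in persisters and 981 CPM in untreated cells, and BRAF at 98.6 CPM in A375 at 4 µM and 117 CPM in untreated cells.

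MET (GRCh38 chromosome 7, 116672390 to 116798386, plus strand, with no overlapping gene in GENCODE v29) was the member with the most UMIs in PC9 and was above untreated in all 8 adapted populations and in persisters. In PC9 it stood at 214 CPM untreated, 351, 398, 412, 439.9, 427, 431 and 444 CPM from 8 to 600 nM, 453 CPM at 1.2 µM and 523 CPM in persisters. MET was 1.65-fold higher (1.55 to 1.74) at 8 nM than in untreated cells, and 1.2 µM was 1.29-fold above 8 nM (1.22 to 1.36). In the cells that the authors list, MET had 301 CPM untreated, 399.9 CPM at 8 nM and 529 CPM at 1.2 µM, and in the others 203, 332 and 418 CPM. From 32 nM to 1.2 µM the levels lay within 412 to 453 CPM, and in the order of levels 6 of 9 neighbouring pairs could not be told apart by counting error. Persisters, which had 9 days of drug, were 1.16-fold above 1.2 µM over all cells (1.10 to 1.22), but 1.04-fold in listed cells (0.972 to 1.12) and 1.02-fold in the others (0.923 to 1.13). The excess was thus not seen within either class.

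In A375, MET stood at 53.8 CPM untreated and at 69.2, 63.4, 75.2, 50.9, 72.9, 85.8, 74.7 and 75.5 CPM from 30 nM to 4 µM. Only the 250 nM population lay below untreated cells, at a ratio of 0.947 with an interval that holds 1 (0.844 to 1.061). In listed cells it had 46.9 CPM against 48.6 CPM untreated, and in the others 64.7 CPM against 55.0 CPM. The highest level over all cells, at 1 µM, was 1.69 times the lowest, at 250 nM. At 4 µM MET was 1.40-fold higher than in untreated cells (1.27 to 1.55), short of the 2-fold used here to call a gene different.

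AXL (chromosome 19, 41219203 to 41261766, plus strand, overlapped by the antisense gene AC011510.1) was stepped by dose in PC9 and uneven in A375. In PC9 it stood at 126 CPM untreated, 125 and 140.4 CPM at 8 and 16 nM, 181, 199.9, 199, 179.5 and 177 CPM from 32 to 600 nM, 212 CPM at 1.2 µM and 140.2 CPM in persisters. Over all cells, all 6 populations from 32 nM up lay above the untreated, 8 nM, 16 nM and persister populations. Among cells that the authors do not list, persisters had 189 CPM, above the 187 CPM at 600 nM. The 1.2 µM level was 1.68-fold above untreated (1.56 to 1.81) and the persister level 1.11-fold (1.01 to 1.22), which was 1.03-fold in listed cells (0.848 to 1.25) and 1.49-fold in the others (1.29 to 1.73). In A375, AXL stood at 72.7 CPM untreated and at 78.3, 48.3, 52.4, 26.6, 76.9, 71.9, 55.1 and 54.9 CPM from 30 nM to 4 µM. At 1 µM it had 61.0 CPM in listed cells and 92.6 CPM in the others, against 57.1 and 76.4 CPM untreated. That is above untreated within each class but not over all cells, though the intervals in listed cells overlapped (54.9 to 67.6 and 50.1 to 64.75 CPM). Listed and other cells had 62.5 and 98.8 CPM at 30 nM, and 64.1 and 99.4 CPM at 500 nM. The 250 nM population was the lowest, and the next one up the ladder, 500 nM, was 2.89-fold above it (2.46 to 3.41). At 4 µM AXL was 1.33-fold lower than in untreated A375 cells (1.19 to 1.48). The ratio of 4 µM to untreated was 0.889 in listed cells (0.739 to 1.07), an interval that holds 1, and 0.796 in the others (0.680 to 0.928).

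FGFR1 (chromosome 8, 38400215 to 38468834, minus strand) overlaps the protein-coding gene LETM2 on the plus strand, 2 genes annotated as antisense and a processed pseudogene. In PC9 it stood at 11.7 CPM untreated, 6.04 CPM at 8 nM, 13.2 CPM at 16 nM, 34.8, 41.9, 40.6, 40.6 and 36.4 CPM from 32 to 600 nM, 40.7 CPM at 1.2 µM and 14.1 CPM in persisters. The levels fell into 2 ranges that did not overlap, 34.8 to 41.9 CPM from 32 nM up and 6.04 to 14.1 CPM in the other 4 populations, and 32 nM was 2.65-fold above 16 nM (2.12 to 3.32). FGFR1 was below untreated at 8 nM, 1.93-fold (1.34 to 2.84), and 3.49-fold above it at 1.2 µM. The ratio of 8 nM to untreated was 0.449 in listed cells, from 5 and 7 UMIs, with an interval that holds 1 (0.112 to 1.64). In the other cells it was 0.593 (0.392 to 0.876). In persisters the ratio to untreated cells was 1.21 over all cells (0.884 to 1.63). Among cells that the authors do not list FGFR1 had 31.7 CPM in persisters and 12.3 CPM in untreated cells, 2.57-fold higher (1.72 to 3.77), and among listed cells 8.75 and 6.19 CPM, from 33 and 7 UMIs. In A375, FGFR1 was highest in untreated cells at 25.8 CPM, against 11.8, 18.9, 16.3, 8.82, 14.9, 19.1, 16.0 and 15.4 CPM from 30 nM to 4 µM. All 8 adapted populations were below untreated. Between the adapted ones no neighbouring pair in the order of levels was apart by counting error, but some neighbouring doses were. The 60 nM level was 1.60-fold above that at 30 nM (1.25 to 2.07), and the 500 nM level 1.69-fold above that at 250 nM (1.23 to 2.32).

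GFRA1 (chromosome 10, 116056925 to 116273467, minus strand, with no overlapping gene) was at or near background in the untreated cells of both lines and stood higher at each osimertinib dose in PC9. It had 2 UMIs in untreated PC9 cells, 0.190 CPM (0.0230 to 0.685). The adapted populations had 2.01, 3.93, 4.93, 7.75, 7.98, 14.2, 16.2 and 26.6 CPM from 8 nM to 1.2 µM, each one above the dose before it, though neighbouring doses were apart by counting error in only some steps, such as 1.2 µM over 600 nM at 1.64-fold (1.30 to 2.08). Persisters had 8 UMIs, 1.63 CPM, and were 16.3-fold lower than the 1.2 µM population (8.13 to 38.4). A375 at 30 nM had 9.70 CPM and at 500 nM, 1, 2 and 4 µM had 12.9, 14.4, 11.6 and 12.8 CPM, while the 60, 125 and 250 nM populations had 3.05, 2.04 and 2.40 CPM and untreated cells 0.774 CPM from 17 UMIs. The 4 µM population was 16.6-fold above untreated A375 cells (9.85 to 29.6). GFRA1 was above untreated in 8 of 8 adapted populations of each line, although at 125 nM in A375 the interval of the ratio held 1 (0.852 to 7.02). In A375 its level did not follow the order of doses.

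IGF1R (chromosome 15, 98648539 to 98964530, plus strand, overlapped by 2 antisense genes, 1 sense intronic gene and MIR4714) went in opposite directions in the 2 lines. In A375 it had 399 CPM untreated, 156 CPM at 30 nM, 326, 350.2 and 290.2 CPM from 60 to 250 nM, and 133, 116, 123 and 160.1 CPM from 500 nM to 4 µM. All 8 adapted populations were below untreated cells, the 30 nM one and the 4 highest doses most of all. The step between 250 and 500 nM was a 2.19-fold drop (2.03 to 2.36), and the step between 30 and 60 nM a 2.09-fold gain (1.96 to 2.24). In PC9, IGF1R had 184 CPM untreated, 256, 265 and 254 CPM from 8 to 32 nM, 228, 227, 223 and 222 CPM from 75 to 600 nM, 229 CPM at 1.2 µM and 229 CPM in persisters. It was above untreated in all 9 treated PC9 populations, by 1.24-fold at 1.2 µM (1.16 to 1.33) and by 1.24-fold in persisters (1.15 to 1.34). At 1.2 µM the ratio was 1.14 in listed cells (0.970 to 1.35), an interval that holds 1, and 1.28 in the others (1.19 to 1.38). In persisters it was 1.17 (1.003 to 1.36) and 1.42 (1.25 to 1.60). Across the A375 populations the levels of IGF1R and GFRA1 mirrored each other, with a Pearson r of -0.97 over 9 populations on the log2(CPM + 1) scale. This is a description, since the populations share a library and a ladder.

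**Figure D1:**
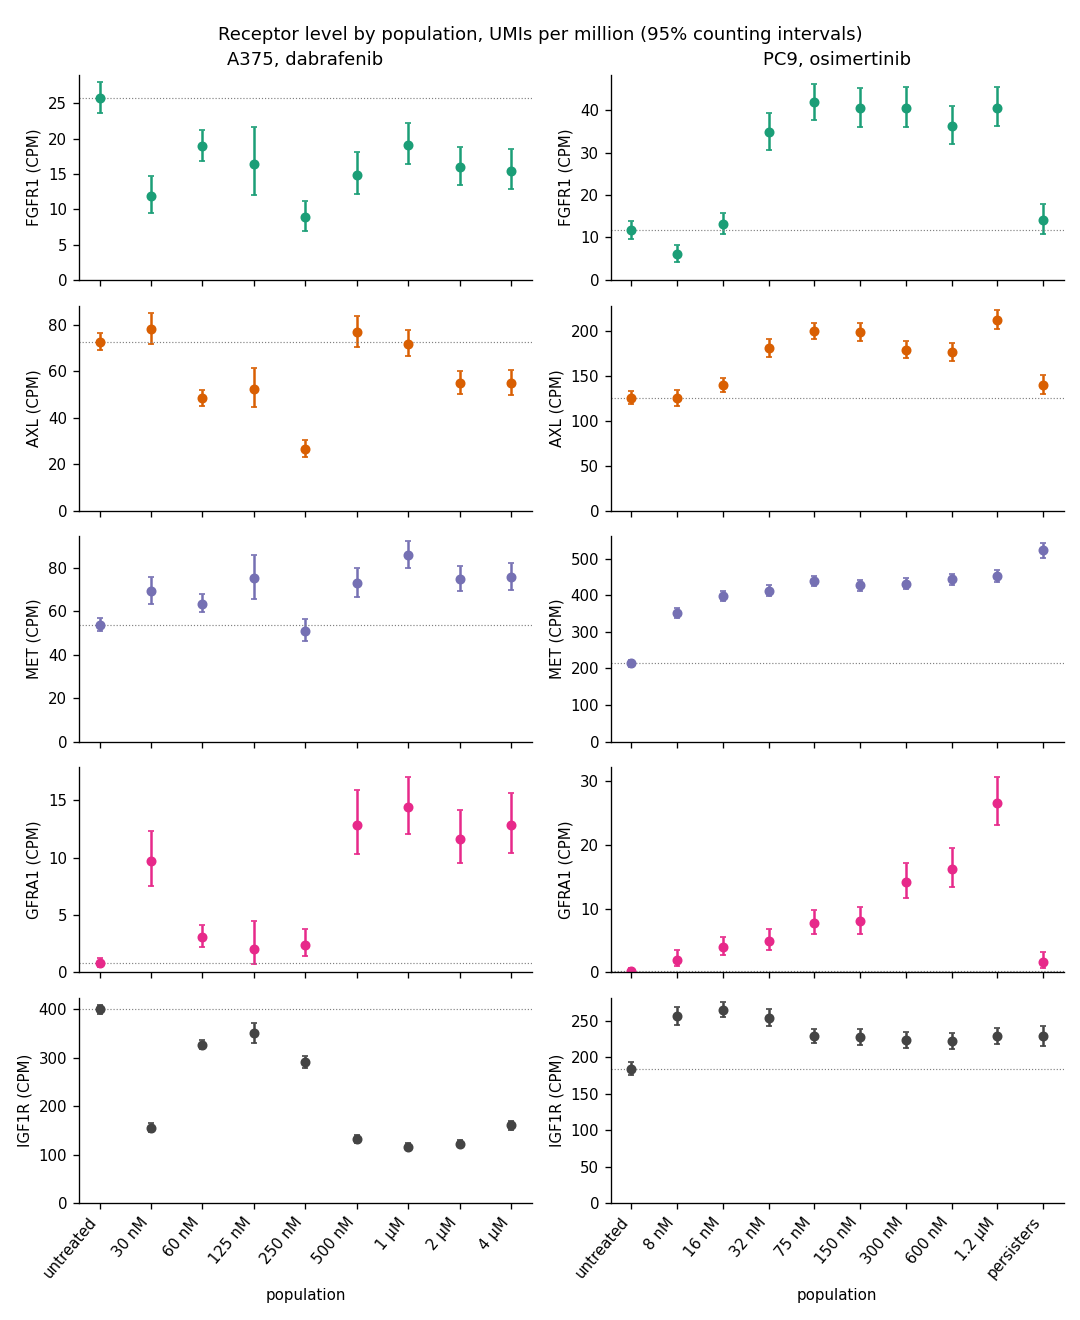
Level of each receptor in CPM (vertical axes, starting at 0) by population from untreated cells up the dose ladder, with PC9 persisters last. Points are 1 culture each, bars are 95% counting intervals and the dotted line is the untreated level: in PC9, FGFR1 steps up at 32 nM, MET is above the line throughout and GFRA1 climbs to 26.6 CPM, while in A375 IGF1R lies below the line in all 8 adapted populations.

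The 8 contrasts were then called at 2-fold on the log2(CPM + 1) scale, among genes that reached 10 CPM and 20 UMIs in whichever population was higher. Contrasts with untreated cells of a line share those cells. In A375 at 4 µM against untreated cells all 5 members were measured, GFRA1 was higher (log2 ratio 2.96) and IGF1R lower (-1.31), where 5.59% of all measured genes were 2-fold higher and 8.89% lower. At 30 nM against untreated 4 members were measured, 0 were higher and 2 lower, IGF1R (-1.35) and FGFR1 (-1.06), beside 4.03% and 4.97% of all genes. FGFR1 was no longer past 2-fold there with a pseudocount of 5 CPM, and GFRA1 missed the 10 CPM minimum at 30 nM although it was 12.5-fold above untreated (7.28 to 22.8). The FGFR1 log2 ratio was -1.22 in listed cells and -0.77 in the others, where the call was lost. GFRA1 reached 10.1 CPM in those other cells and was called there (2.55). Between 4 µM and 30 nM none of the 5 was 2-fold apart, beside 2.92% of all genes higher and 3.29% lower. The largest of those 5 log2 ratios was that of AXL, -0.51.

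PC9 at 1.2 µM against untreated cells had 3 of 5 members higher and 0 lower, GFRA1 (4.54), FGFR1 (1.72) and MET (1.08), beside 6.0% of all genes higher and 3.86% lower. MET fell short of 2-fold, at a log2 ratio of 0.81, in the cells that the authors' table lists. At 8 nM against untreated 0 of 4 measured members were 2-fold apart in either direction, beside 3.15% of genes higher and 1.77% lower. At 1.2 µM against 8 nM FGFR1 (2.57) and GFRA1 (3.20) were higher and none lower, beside 1.63% and 1.36% of all genes. Persisters against untreated cells had 1 of 4 measured members higher, MET (1.29), and 0 lower, beside 10.6% and 9.63% of all genes. That call was also lost in the cells of the authors' table, where the log2 ratio of MET was 0.88, and in the other cells MET (1.07) and FGFR1 (1.30) were both higher. Among genes measured in listed cells 10.9% were higher and 8.645% lower, and in the other cells 5.45% and 3.98%. Persisters against 1.2 µM had 0 members higher and 2 lower, FGFR1 (-1.47) and GFRA1 (-3.39), beside 4.03% and 4.26% of all genes. In listed cells the log2 ratios were -1.79 for FGFR1 and -3.66 for GFRA1, and in the other cells -0.47 and -2.32, so the FGFR1 call was lost there and the GFRA1 call was not. Among genes measured in listed cells 3.90% were higher and 2.75% lower, and in the other cells 1.78% and 1.46%. AXL was past 2-fold in none of the 8 contrasts and IGF1R in none of the 5 PC9 contrasts.

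**Figure D2:**
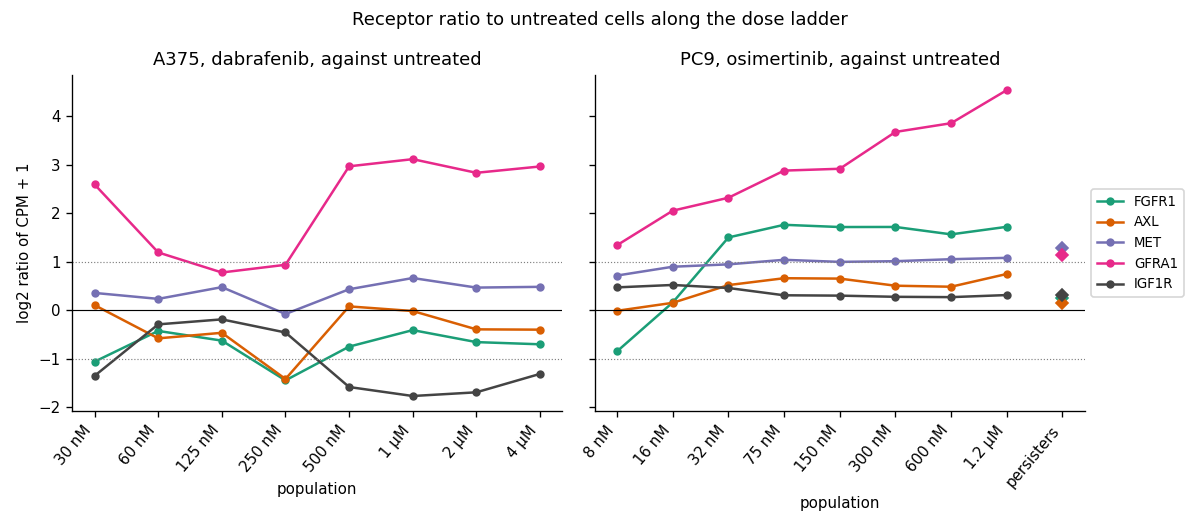
Log2 ratio of each receptor to the untreated cells of its line (vertical axis) by population, with dotted lines at 2-fold and diamonds for PC9 persisters. Lines join cultures of the dose ladder and are not time courses; GFRA1 reaches 4.54 at 1.2 µM in PC9, and in A375 the 30 nM population resembles the doses from 500 nM up for GFRA1 and IGF1R.

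Cells with at least 1 UMI were counted after each cell was thinned to 4000 UMIs, so that depth is equal. At 1.2 µM, 81.1% of PC9 cells had a MET UMI (78.5 to 83.5), against 52.7% of untreated cells (49.9 to 55.5). For AXL the shares were 54.0% at 1.2 µM (50.8 to 57.2) and 37.7% untreated (35.0 to 40.5). FGFR1 was found in 15.1% of the 1.2 µM cells (12.9 to 17.5), in 3.86% of persisters and in 4.29% of untreated cells (3.23 to 5.58). GFRA1 was found in 9.10% of cells at 1.2 µM (7.36 to 11.1), in 0.154% of persisters and in 0 of 1235 untreated cells, which allows a share of cells with a UMI of up to 0.243%, from 3 counts. The persister share of FGFR1 is over listed and other cells together. Without thinning, the GFRA1 shares were 14.4% at 1.2 µM, 0.729% in persisters and 0.152% in untreated cells. The untreated cells came from the same pool and were deeper, with a median of 7968 UMIs against 6738.5 at 1.2 µM. In A375, IGF1R was found in 40.5% of cells at 4 µM (36.6 to 44.4) and 75.1% of untreated cells (73.1 to 77.0), and GFRA1 in 4.16% and 0.256%.

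The share of cells with a UMI can be set beside the share that a Poisson draw around the mean level gives. In PC9 at 1.2 µM the observed share of FGFR1 was 15.1% and the Poisson share 15.3%, and for GFRA1 they were 9.10% and 10.2%. For AXL they were 54.0% and 57.0%, and for MET 81.1% and 83.6%. For IGF1R in A375 at 4 µM the observed share was 40.5% and the Poisson share 47.5%.

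**Figure D3:**
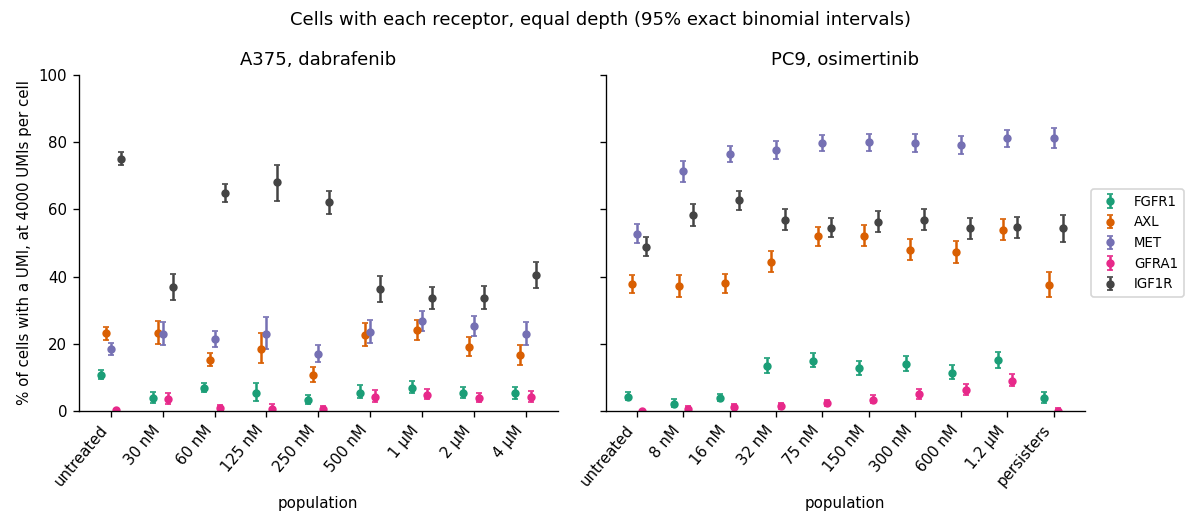
Percent of cells with at least 1 UMI of each receptor (vertical axis, 0 to 100) by population after thinning every cell to 4000 UMIs; bars are 95% exact binomial intervals. MET is found in 71.3% to 81.3% of treated PC9 cells and 52.7% of untreated ones, and IGF1R in A375 lies lowest at 30 nM and from 500 nM up.

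How often a pair of receptors was found in the same cell was set beside the product of their shares. In 93 combinations of a pair and a population at least 20 thinned cells were expected to hold both, and in all 93 the 95% interval of observed over expected held 1. The ratios ran from 0.880 to 1.17 in A375 and from 0.796 to 1.27 in PC9, with medians of 1.04 and 1.01, and 62 of the 93 were above 1. The interval is that of the observed share, with the expected count held fixed, and takes no account of how many cells held each receptor. It is therefore too wide for receptors found in many cells, where it would hold 1 in most cases. That it held 1 cannot show that a pair is independent. At 1.2 µM in PC9, FGFR1 and AXL were both found in 86 of 967 cells where 78.8 were expected (ratio 1.09, 0.880 to 1.33), AXL and MET in 418 cells where 423 were expected, and FGFR1 and GFRA1 in 12 where 13.3 were expected, the last under the minimum of 20. Without thinning the median ratio was 1.07 and the highest 1.35, and deeper cells hold more of every gene. The mean number of the 5 receptors found in a thinned PC9 cell was 2.14 at 1.2 µM, 1.77 in persisters and 1.44 untreated, and all 5 were found in 5 of 967 cells at 1.2 µM. In A375 the mean was 0.896 at 4 µM and 1.28 untreated.

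Cells of one culture differed by the cluster that the authors' cell table gives them. Those clusters were made from the same counts, so these values are a description. In PC9, clusters 3 and 4 each held at least 50 cells in the 6 cultures from 32 nM to 1.2 µM. FGFR1 and AXL were higher in cluster 3 and MET lower in it in 6 of 6 cultures, with intervals clear of 1 in 5 of 6 for FGFR1 and in 6 of 6 for AXL and MET. At 1.2 µM, cluster 3 had 54.8 CPM of FGFR1, 227 CPM of AXL and 482 CPM of MET, and cluster 4 had 19.9, 138 and 560.1 CPM. The cluster 3 over cluster 4 ratios there were 2.76 for FGFR1 (1.68 to 4.63), 1.64 for AXL (1.34 to 2.02) and 0.860 for MET (0.761 to 0.971). Over the 6 cultures the AXL ratio lay between 1.59 and 1.98 and the FGFR1 ratio between 1.14 (0.667 to 2.01), at 150 nM, and 3.96. IGF1R was also higher in cluster 3 in 6 of 6 cultures, by 1.23 to 1.45 times, and GFRA1 in 5 of 6, with no interval clear of 1. Of the 673 persister cells that the authors list, 599 were in cluster 1, and these had 7.08 CPM of FGFR1 and 568 CPM of MET. Median UMIs per cell at 1.2 µM were 5634 in cluster 3 and 5595 in cluster 4.

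In A375 at 500 nM and 1, 2 and 4 µM, clusters 6 and 7 each held at least 50 cells. They were not the only clusters: at 500 nM they held 177 and 116 of 493 listed cells, and clusters 2 and 3 held 107 and 52. AXL, MET and IGF1R were higher in cluster 6 in 4 of 4 cultures with every interval above 1, and GFRA1 in 4 of 4 with 2 intervals above 1. FGFR1 was higher in 3 of 4, with 1 interval above 1 and a ratio of 0.790 at 1 µM. At 4 µM, cluster 6 had 178 CPM of IGF1R, 97.9 CPM of MET and 58.6 CPM of AXL, and cluster 7 had 68.9, 50.1 and 40.7 CPM. At 60 nM the culture held several clusters: cluster 1 had 435 CPM of IGF1R and 0.245 CPM of GFRA1, cluster 3 had 153 and 1.89 CPM, and cluster 4 had 205 and 7.84 CPM. These GFRA1 levels rest on 1, 3 and 8 UMIs. Their intervals were 0.0062 to 1.36, 0.389 to 5.51 and 3.38 to 15.4 CPM, so that of cluster 3 overlapped both others. The median UMIs of clusters 6 and 7 at 4 µM were 9671 and 9107, and the part of depth in these ratios was not tested.

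**Figure D4:**
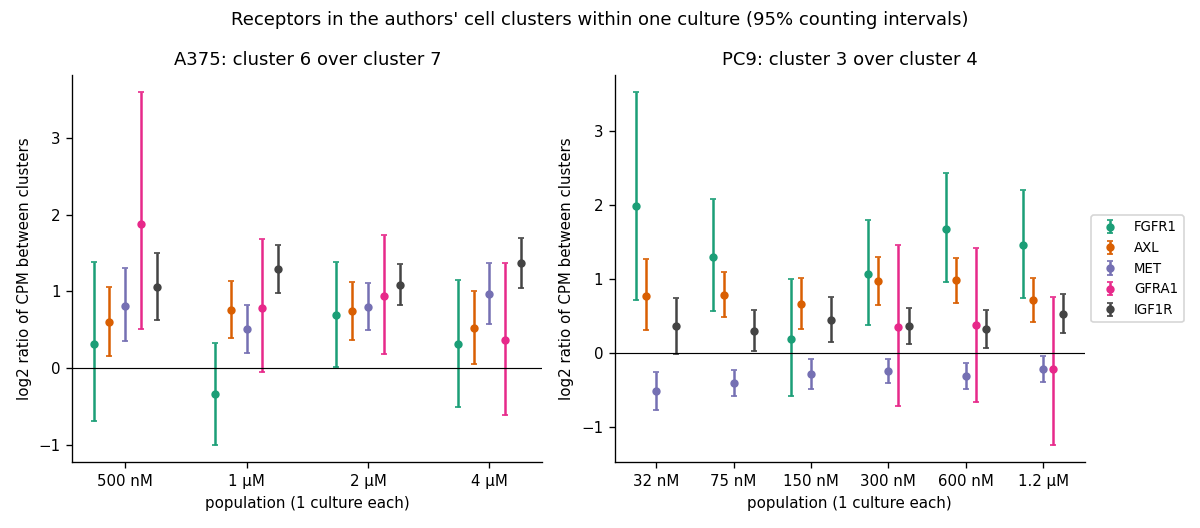
Log2 ratio of CPM between 2 of the authors' cell clusters (vertical axes) inside each culture that held at least 50 cells of both, with 95% counting intervals and only where both clusters had at least 5 UMIs. In PC9 FGFR1, AXL and IGF1R lie above 0 and MET below 0 in all 6 cultures; in A375 AXL, MET and IGF1R lie above 0 in all 4.

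The authors' tables list 5059 of the A375 cells and 4208 of the PC9 cells. Listed cells had fewer UMIs than the others in all PC9 populations, with medians of 5617 against 7555 at 1.2 µM. AXL was lower in listed than in other cells in 9 of 9 A375 and 10 of 10 PC9 populations, FGFR1 in 8 of 9 and 10 of 10, and MET was higher in listed cells in 10 of 10 PC9 populations. For FGFR1 the PC9 gap was widest in persisters, at 8.75 CPM in 673 listed cells and 31.7 CPM in the others, and GFRA1 had 0.530 and 5.28 CPM there. In untreated PC9 cells MET had 301 CPM in the listed cells and 203 CPM in the others. The summed level of 8 S phase genes was also lower in listed cells in 9 of 9 A375 and 10 of 10 PC9 populations, as was that of the G2 and M phase genes. The part of the cell cycle or of depth in these gaps was not tested.

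The ligands and partners of each receptor were read from gene lists of its axis, counted among the listed genes that were measured in a contrast. For AXL the ligands differed by line. GAS6, the secreted protein that binds AXL, stood in PC9 at 25.4 CPM untreated, 47.5, 47.4, 61.9, 81.1, 82.4, 83.7 and 80.3 CPM from 8 to 600 nM, 88.3 CPM at 1.2 µM and 62.3 CPM in persisters. Every treated population was above untreated, and at 1.2 µM GAS6 was 3.48-fold higher (3.01 to 4.02). In A375 PROS1, which encodes protein S, had 40.6 CPM at 4 µM and 13.2 CPM untreated, 3.09-fold higher, while TYRO3, a kinase of the AXL family, was 2.75-fold lower (2.01 to 3.84). At 4 µM 1 of 3 measured genes of this axis was thus higher and 1 lower, with a median log2 ratio of 0.68 beside -0.17 over all measured genes, and in PC9 at 1.2 µM 1 of 2 was higher. Among all measured genes 5.59% were higher and 8.89% lower in A375 at 4 µM, and 6.0% and 3.86% in PC9 at 1.2 µM.

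Of the MET axis, 7 of 13 listed genes were measured in PC9 at 1.2 µM against untreated cells, 1 higher and 1 lower, with a median log2 ratio of -0.28 beside 0.02 over all measured genes. The shares of all measured genes were 6.0% higher and 3.86% lower. HPN, the gene of hepsin, a membrane protease able to activate HGF, had 20.003 CPM at 1.2 µM, 16.9 CPM in persisters and 3.03 CPM in untreated cells. MST1R, the kinase closest to MET, was 2.42-fold lower at 1.2 µM (1.72 to 3.45). In persisters CD44, a surface protein that can hold HGF, had 226 CPM against 692 CPM in untreated cells, 3.06-fold lower (2.87 to 3.26). In A375 at 4 µM 3 genes were measured, and SEMA5A, a semaphorin that has been linked to MET, was the 1 past 2-fold, at 14.4 CPM against 1.64 CPM untreated. Of all measured genes 5.59% were higher in that contrast.

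The FGF axis was the longest list, with 29 genes. In A375 at 4 µM 0 of 11 measured genes were higher and 4 lower, beside 5.59% and 8.89% of all measured genes, and the median log2 ratio was -0.17 for the list and for all genes. FLRT3, a membrane protein that binds FGF receptors, was 8.12-fold lower (5.92 to 11.4), FGF13, which stays inside the cell, 4.01-fold, FGFRL1, a receptor without a kinase, 2.60-fold, and FGF1 2.57-fold. At 30 nM 2 of 12 were higher and 4 lower, beside 4.03% and 4.97% of all measured genes. In PC9 at 1.2 µM 2 of 9 were higher, FGF2 and FGFBP1, a carrier that releases FGFs from the matrix, and FLRT2 was lower. In that contrast 6.0% of all measured genes were higher and 3.86% lower. FGF2, an FGFR1 ligand, had 4.83 CPM in untreated PC9 cells, 6.19 and 8.20 CPM at 8 and 16 nM, 14.3, 19.6, 18.9, 18.4 and 15.3 CPM from 32 to 600 nM, 15.5 CPM at 1.2 µM and 8.35 CPM in persisters. The 6 populations with the highest FGF2 were those with the highest FGFR1. In persisters KL, the klotho co-receptor, had 10.6 CPM against 1.61 CPM untreated, 6.58-fold higher (3.74 to 12.1).

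RET, the kinase that GFRA1 works with, was not analysed here. GDNF, the ligand of GFRA1, had 8.51 CPM in untreated A375 cells, 28.9, 22.0, 26.5 and 20.4 CPM from 30 to 250 nM, and 11.3, 5.003, 8.78 and 6.94 CPM from 500 nM to 4 µM. The ligand was therefore highest at the 4 lowest doses, while GFRA1 was highest at 30 nM and from 500 nM up. In PC9, GDNF lay between 0.663 and 3.32 CPM, and no gene of this axis reached the minimum level.

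Of the insulin and IGF axis 5 genes were measured in each line. INSR, the insulin receptor and partner of IGF1R in hybrid receptors, was lower from 32 nM osimertinib up: 10.2 CPM untreated, 13.5, 10.8, 6.80, 2.40, 1.73, 0.398 and 0.550 CPM from 8 to 600 nM, and 0.946 CPM at 1.2 µM. Persisters had 12.0 CPM, 12.7-fold above the 1.2 µM population (5.80 to 33.0), and the 1.2 µM population was 10.8-fold below untreated (5.07 to 27.5). In A375 INSR lay between 13.4 and 24.8 CPM. IRS2, an adaptor of both receptors, had 62.6 CPM in A375 at 4 µM and 182 CPM in untreated cells, 2.90-fold lower (2.64 to 3.20), and GRB10, which restrains both receptors, was 2.60-fold lower at 30 nM.

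Of 21 adaptors and effectors 20 were measured in PC9 persisters against untreated cells, and 4 were higher and 0 lower, beside 10.6% and 9.63% of all measured genes, with a median log2 ratio of 0.22 beside -0.04. The 4 were CBLB, a ubiquitin ligase that removes active receptors, at 129 CPM against 21.9 CPM, SOS2, which loads RAS, STAT3 and GAB1. At 1.2 µM 2 of 20 were higher, GAB2 (2.27-fold) and STAT3 (2.14-fold), and 0 lower, beside 6.0% and 3.86% of all measured genes. In A375 1 of 20 was higher at 4 µM, CBLB (2.15-fold), and 1 of 20 at 30 nM, PIK3R1 (3.35-fold), the regulatory subunit of PI3K. Of all measured genes 5.59% were higher at 4 µM and 4.03% at 30 nM. Among 8 genes of receptor shedding, TIMP2, an inhibitor of the proteases that cut receptors from the surface, had 127 CPM at 1.2 µM, 251 CPM in persisters and 56.5 CPM in untreated PC9 cells. TIMP3, which inhibits the sheddases ADAM10 and ADAM17, was 2.29-fold higher in PC9 at 1.2 µM and 2.11-fold lower in A375 at 4 µM. No list was tested for enrichment.

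Of 54 other receptor tyrosine kinases 23 were measured in A375 at 4 µM against untreated cells, with 3 higher and 7 lower and a median log2 ratio of -0.33 beside -0.17 over all measured genes. Of all measured genes 5.59% were higher and 8.89% lower. EPHA5 was 17.0-fold higher (13.0 to 22.7) and NTRK2, the receptor of BDNF, 11.7-fold (8.67 to 16.1), and the lowest were ERBB3, 5.07-fold lower (4.49 to 5.75), and FLT1, 4.95-fold. In PC9 at 1.2 µM 18 were measured, with LMTK3 higher (2.44-fold) and INSR and MST1R lower, beside 6.0% and 3.86% of all measured genes. In persisters 19 were measured, with ALK (2.92-fold), ERBB3 (2.20-fold) and EPHA4 (2.07-fold) higher and ROR1 lower (2.14-fold). Of all measured genes 10.6% were higher and 9.63% lower in persisters. EPHA6 had 14.1 CPM in persisters and 0.541 CPM at 1.2 µM. The median log2 ratios of the PC9 lists were 0.06 at 1.2 µM and 0.03 in persisters.

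**Figure D5:**
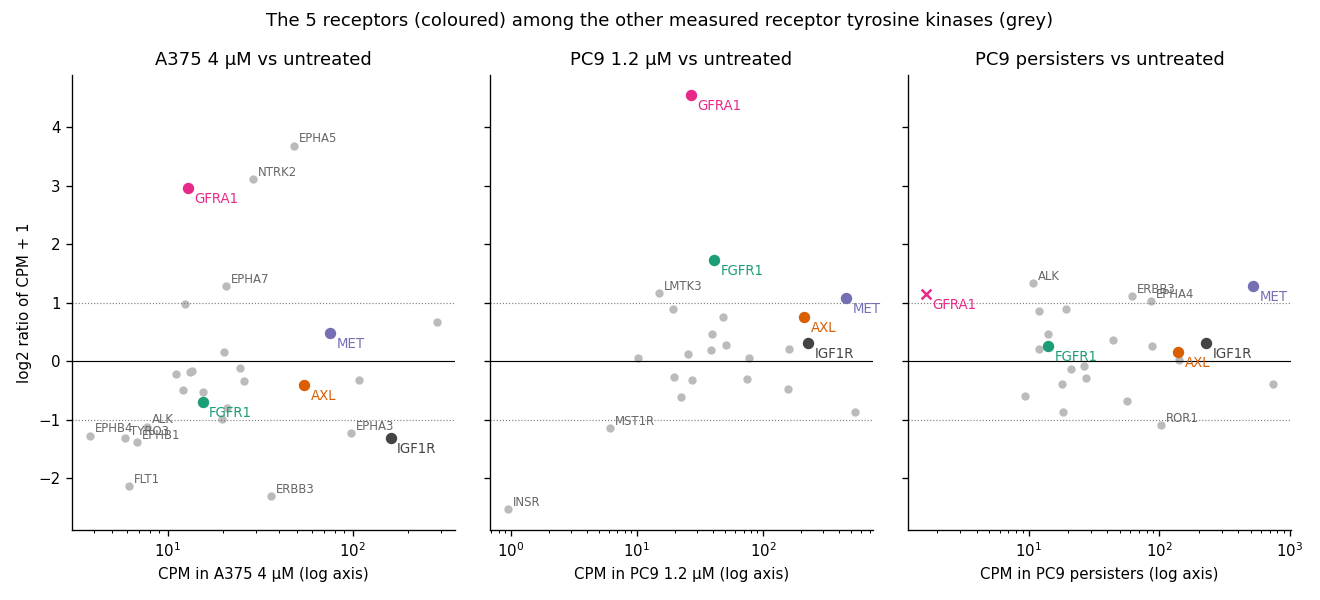
Log2 ratio to untreated cells (vertical axis) against CPM in the treated population (log axis) for the 5 receptors in colour and the other measured receptor tyrosine kinases in grey, with dotted lines at 2-fold and a cross for a receptor below the minimum level. GFRA1 at 4.54 and FGFR1 at 1.72 lie above every grey point in PC9 at 1.2 µM, while in A375 EPHA5 and NTRK2 lie above GFRA1.

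The genes whose levels across populations were most like each receptor were listed by Pearson r on the log2(CPM + 1) scale, among 2323 or 2324 genes in A375 and 1885 or 1886 in PC9. In PC9 MET was nearest to DCLK2 (r 1.00 to 2 decimals over 10 populations), KLK7, SLC47A2, OLR1 and ERBIN. FGFR1 was nearest to ETS2 (r 0.97), LRRC61, SLC35F3, EPHB6 and NNMT, and AXL to PLOD2 (r 0.96), ETS2, NNMT, RNF19B and FGFR1 itself (r 0.95). GFRA1 was nearest to BMP6 (r 0.96) and IGF1R to PTPRR (r 0.94). In A375, over 9 populations, GFRA1 was nearest to BDNF (r 0.99), with 225 CPM at 4 µM and 19.9 CPM untreated, and NRG1 was also among its 5. IGF1R was nearest to SLC1A1 (r 0.99), FGFR1 to THSD4 (r 0.96), AXL to CCDC86 (r 0.95) and MET to DRAM1 (r 0.95). The populations of a line share 1 pool, and with these few points the names are a description.

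The ratio of each receptor can be set beside 20 near genes on its chromosome. These were the nearest that reached the minimum CPM in every population of the line, a stricter rule than that for a measured gene. A gene below it in any population, as GFRA1 and FGFR1 were in PC9, could not be a neighbour. The rule favours a small median of the neighbours, so the gap to them is a description. In PC9 at 1.2 µM MET had a log2 ratio of 1.08 and its neighbours from IMMP2L to ZNF800 a median of 0.10, with 1 of 20 past 2-fold. In persisters the values were 1.29 for MET and 0.07 for the median of its neighbours. At 1.2 µM GFRA1 had 4.54 and its neighbours 0.06, FGFR1 1.72 and 0.19, and AXL 0.75 and 0.32. In A375 at 4 µM IGF1R had -1.31 and its neighbours -0.18. DNA copy number was not measured.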

How the data were processed

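Single cells of each line were pooled after tagging and sequenced as 3′ libraries, A375 in 2 runs that the cell names do not separate. Counts were deposited as UMI counts per gene and cell, made with Cell Ranger 7.0.0 on GRCh38, per the submitters' processing notes, and whether counting used strand is not given in the sources used here. The 3′ UMI counts 1 tag per molecule and was not scaled by length. The percent of mitochondrial UMIs and the cluster of each listed cell are the authors', per the file headers. Populations were read from the suffix of the cell names, and the A375 suffix T05 was taken as the 500 nM population, labelled T0500, since no other suffix was left for it. Counts were summed per population and given as CPM of all UMIs. A gene was measured at 10 CPM and 20 UMIs in the higher population and called at 2-fold on log2(CPM + 1). Intervals are exact 95% intervals (Poisson, binomial or conditional binomial) and cover counting error only. That of co-detection is binomial for the observed share, with the expected share held fixed. For shares of cells, each cell was thinned to 4000 UMIs and shallower cells were left out. No doublet caller was run. Genes named were the members, the drug targets, listed genes that reached the minimum, the 5 highest and 5 lowest other receptor tyrosine kinases and the 5 most alike genes, from those with 25 CPM in a population; cluster contrasts, chromosome neighbours and GDNF in PC9, the cell cycle genes and the contrasts within listed and other cells were added after values were seen. Members and lists were chosen with earlier results of these data known. Calculations used Python 3.11.15, scipy 1.17.1 and pandas 2.3.3, with trimmed mean factors from edgeR 4.0.16, and the ratio script was tested on simulated data. Alternatives covered the pseudocount, the minimum, the fold, scaling and the choice of cells. Sequences are from RefSeq.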

Additional observations from a re-analysis of the deposited data

Results flagged for a closer look

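IGF1R stood on opposite sides of untreated cells in the 2 lines. In PC9 it was above untreated in 8 of 8 adapted populations, at 222 to 265 CPM against 184 CPM, and in A375 below untreated in 8 of 8, at 116 to 350.2 CPM against 399 CPM. In listed PC9 cells the interval of the ratio at 1.2 µM held 1 (0.970 to 1.35). The difference between the lines was not tested, since each population was 1 culture and the lines differ in tumour type, driver and drug.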

How the results depend on the processing

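No paired analysis was possible because each population was 1 culture, and for the same reason no replicate could be left out. Of 96 counts of members past 2-fold under the alternatives 15 moved by over 1.5 times. With a minimum of 50 CPM the counts were 1 for A375 at 4 µM against untreated (2 as reported), 1 at 30 nM (2), 1 for PC9 at 1.2 µM against untreated (3), 0 at 1.2 µM against 8 nM (2) and 0 for persisters against 1.2 µM (2), by construction, since fewer genes are measured. With a 3-fold threshold they were 1 for A375 at 4 µM, 0 at 30 nM, 0 for persisters against untreated (1) and 1 for persisters against 1.2 µM. With no minimum they were 1 for PC9 at 8 nM (0) and 2 for persisters against untreated, through GFRA1. With a pseudocount of 5 CPM the A375 30 nM count was 1. In the cells of the authors' table persisters against untreated had 0. In the cells that table does not list, an alternative chosen after seeing the data, persisters had 2 against untreated, MET and FGFR1, and 1 against 1.2 µM, GFRA1. Among all genes measured in those cells 5.45% were higher against untreated and 1.46% lower against 1.2 µM. For A375 at 30 nM against untreated GFRA1 was called in those cells and FGFR1 was not. The cause of these changes was not tested. Of 480 log2 ratios of members 52 moved, 15 of them in the cells of the authors' table and 13 in the others, and none changed sign while called. The 480 include 40 each at 3-fold, with no minimum and at 50 CPM. Those could not move, since these settings change the call and not the ratio. Of 96 counts each over all genes 31 (higher) and 32 (lower) moved, including all at 3-fold and at 50 CPM. For A375 at 4 µM against untreated, 556 genes were higher and 884 lower as reported, 304 and 321 at 3-fold, and 234 and 448 at 50 CPM. For PC9 at 1.2 µM against untreated, 569 were higher and 366 lower as reported, 244 and 136 at 3-fold, 235 and 172 at 50 CPM, and 980 and 553 with no minimum. For persisters against untreated, 1027 were higher and 929 lower as reported, and 449 and 251 at 3-fold. Thinning moved 92 of 95 shares of cells, and 2 of 372 co-detection ratios moved out of their wide intervals under the alternatives. GFRA1 rests on few UMIs in untreated PC9 cells (2), in A375 at 125 nM (6) and in PC9 persisters (8).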
